A study of Mus musculus with 2 samples.

Results

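Molecular chaperones are proteins that help other proteins fold, refold or stay soluble. The genes described here are the heat shock protein (HSP) and DnaJ genes of the mouse, taken as every protein-coding gene of the deposited table whose symbol starts with Hsp or with Dnaja, Dnajb or Dnajc followed by the usual family letter and number. The pattern found 73 genes of 55246 loci, of which 22046 are protein-coding. One of the 73, Hspg2, encodes perlecan, a proteoglycan of the extracellular matrix that is no chaperone and shares only the symbol's first letters. Of the 73 genes, 62 had at least 10 reads over both libraries and were compared, 6 had fewer reads and 5 had 0 reads in both.

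The RNA came from Treg cells of female mice, that is, regulatory T cells, the CD4 lineage defined by the transcription factor Foxp3. The tissue was the lamina propria of the colon, the layer under its epithelium. One library came from wild type (WT) animals and 1 from animals labelled Exon2KO, whose Foxp3 allele lacks exon 2. Age, strain, the sorting scheme and any pooling of mice are not given in the sources used here. With 1 library per genotype the spread between samples is unknown, so every interval below covers counting error in these 2 libraries only, and every difference is one between libraries and not a tested effect of genotype. In bulk RNA, fewer cells of a type and less RNA per cell cannot be told apart.

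HSP70 proteins bind exposed hydrophobic stretches of unfolded proteins in a cycle driven by ATP. DnaJ proteins carry a J domain that brings clients to HSP70 and speeds its ATP hydrolysis, HSP110 proteins exchange the nucleotide, and HSP90 acts on clients that are nearly folded. Each compartment has its own set. In the cytosol, heat shock factor 1 raises a group of these genes under stress. In the endoplasmic reticulum (ER), BiP and its DnaJ partners are raised by the unfolded protein response, and mitochondria have their own chaperonin and HSP70.

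The response elements in the promoters of these genes are shown first, so that the ratios below can be read beside them. Promoter windows of 250 bases before to 50 bases after the start site were taken from RefSeq (GRCm38.p6) and matched 59 of the 73 genes by symbol. A three-unit heat shock element was searched as GAANNTTC followed by NNGAA, and as its reverse complement, so that both strands were covered. It was present in the windows of 4 genes (6.78% of 59), against 0.662% of all 27025 genes with a window. The 4 genes were Hspe1, Hspd1, Dnajb6 and Hsph1. An ER stress element, CCAAT and CCACG with 9 bases of any kind between them, on either strand, was present for 3 genes (5.08%), Hspa5, Hsp90b1 and Dnajc3, against 0.137% of all genes. The stretches below are written 5′ to 3′ on the strand of the gene, with the matches in capitals. Where GENCODE M21 places an exon over the stretch, 30 bases are shown.
Hspe1, three-unit heat shock elements, chr1:55088053-55088082, plus strand: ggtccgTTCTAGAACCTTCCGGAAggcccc
Dnajb6, three-unit heat shock element, chr5:29735843-29735872, plus strand: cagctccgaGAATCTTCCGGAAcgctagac
Hsph1, three-unit heat shock element, chr5:149636288-149636300, minus strand: TTCTGGAAAGTTC
Hspa5, ER stress element, chr2:34772019-34772048, plus strand: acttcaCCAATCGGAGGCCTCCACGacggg
Hsp90b1, ER stress elements, chr10:86705523-86705666, minus strand: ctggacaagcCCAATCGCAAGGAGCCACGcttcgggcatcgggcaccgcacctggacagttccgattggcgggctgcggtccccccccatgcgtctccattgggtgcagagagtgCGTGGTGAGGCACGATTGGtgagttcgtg
Dnajc3, ER stress element, chr14:118937802-118937871, plus strand: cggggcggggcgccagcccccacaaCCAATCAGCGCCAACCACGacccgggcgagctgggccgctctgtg

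Hspd1 and Hspe1 stand head to head on chromosome 1, with RefSeq start sites 216 bases apart, and the Hspe1 stretch above is also the Hspd1 match read from the other strand. The Hsph1 match lies past the start site, at an offset of 36 or 15 bases depending on which of its RefSeq start sites is used. A shorter pattern of only 2 units, GAANNTTC or TTCNNGAA, each its own reverse complement and each contained in the longer element, was added after the values had been seen. It was found in 16 of the 59 genes (27.1%), against 17.0% of all genes. Among these are the cytosolic heat shock genes below, shown because they include the lowest ratios of the inducible group. The Hspa1a and Hspa1b stretches are identical at all 68 positions.
Hspa1a, two-unit element, chr17:34972223-34972290, minus strand: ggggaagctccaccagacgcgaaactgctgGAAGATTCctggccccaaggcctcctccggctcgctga
Hspa1b, two-unit element, chr17:34959305-34959372, minus strand: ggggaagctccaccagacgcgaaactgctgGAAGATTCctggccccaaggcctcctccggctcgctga
Dnaja1, two-unit element, chr4:40722333-40722362, plus strand: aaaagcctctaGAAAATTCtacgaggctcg
Hspb1, two-unit elements, chr5:135887772-135887859, plus strand: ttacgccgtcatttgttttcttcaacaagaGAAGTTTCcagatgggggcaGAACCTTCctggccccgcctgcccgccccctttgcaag

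Gene counts summed to 16281133 reads in WT and to 15412425 in Exon2KO. The 73 genes took 311144 of the WT reads, a share of 1.91% (95% Wilson interval 1.90 to 1.92), and 257062 of the Exon2KO reads, 1.67% (1.66 to 1.67). For a gene at 0 reads, the limit is 3 reads of the total, or 1.84e-05% in WT and 1.95e-05% in Exon2KO. All 10 Treg and CD4 T cell markers were detected in both libraries, at a summed 12790 CPM (reads relative to the scaled library size) in WT and 15547 in Exon2KO. Of these markers 5 had a ratio above 0 and 5 below, with a median of -0.13. Foxp3 was called higher, with 6991 and 20946 reads at 1.56, and a count over the whole gene does not check the loss of 1 exon. Ikzf2, which encodes the Treg transcription factor Helios, was called lower at -4.29, with 8476 and 440 reads. Tnfrsf18, which encodes the receptor GITR, was called lower at -1.59, with 34363 and 11626 reads. Genes of plasma cells were abundant in both libraries, with a summed 62501 and 53357 CPM over 10 markers and none at 0. Over 12 epithelial markers the sum was 96.5 and 488 CPM, and Fabp2 was at 0 in WT.

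Log2 ratios below are Exon2KO over WT on TMM-scaled counts, with a prior count of 2 added. A gene was called when an exact binomial test of its reads, adjusted over all 17363 genes with at least 10 reads, passed 0.05 and the ratio was at least 2-fold. Of the 62 chaperone genes compared, 4 were called lower (6.45%), where 6.61% of all genes tested were called lower. Another 4 were called higher (6.45%), where 7.2% of all genes were. At this threshold the share of called genes was thus near that of all genes. At 1.5-fold, 12 genes were lower (19.4%), where 10.6% of all genes were, and 4 were higher, where 10.5% of all genes were. Of the 38 chaperone genes with at least 1000 reads, 11 were lower by 1.5-fold (28.9%), against 7.85% of the 4740 genes of that depth, and 0 were higher, against 3.97%. The median log2 ratio of the 62 genes was -0.05, against 0.0035 over all genes tested and -0.044 over the genes with at least 1000 reads. Of the 38 chaperone genes of that depth 22 had a ratio below 0, near the 56.2% of all genes of that depth. The groups within the set differed from each other.

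**Figure D1:**
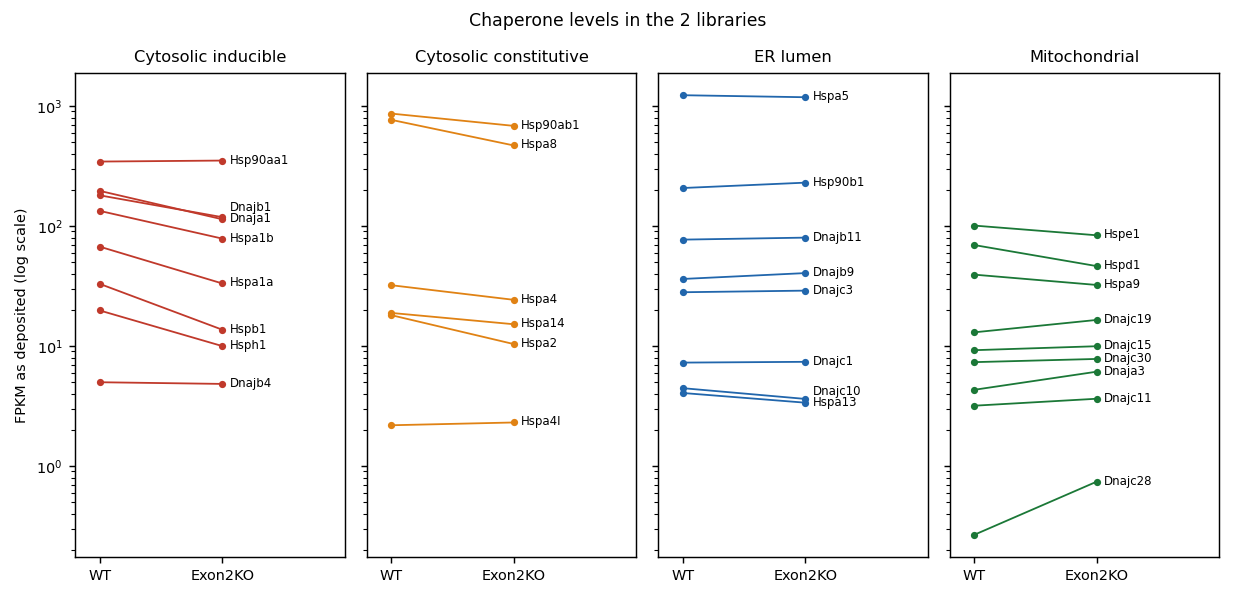
Deposited FPKM (a level per length of gene and per size of library, log axis) of each gene in the WT and Exon2KO libraries, 1 line per gene with at least 10 reads, in panels for 4 compartment groups. Lines of 6 of the 8 inducible genes go down by at least 1.5-fold, while Hsp90aa1 and the ER lumen lines run nearly level.

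The cytosolic inducible group had the lowest median ratio of the groups, although not the lowest summed ratio. Of its 8 genes, 7 had a ratio below 0, 6 were lower by at least 1.5-fold and 2 were called lower at 2-fold, with a median log2 ratio of -0.79. Their summed reads went from 69660 in WT to 50705 in Exon2KO, or 4438 to 3171 CPM, a log2 ratio of -0.48 (95% Clopper-Pearson interval -0.50 to -0.47). Total counts in place of TMM raised the median log2 ratio over all genes tested by 0.105, and the sum of the inducible group was then at -0.38.

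Hspb1 (ENSMUSG00000004951, chromosome 5, 135887919 to 135889563 on GRCm38, plus strand) encodes the small heat shock protein known as HSP25 in mice, which holds unfolded proteins for HSP70. It had 535 reads in WT and 224 in Exon2KO, or 32.9 and 13.7 FPKM. The log2 ratio was -1.28 (-1.51 to -1.06), the lowest of the inducible genes, and the gene was called lower.

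Hspa1a and Hspa1b, neighbours on chromosome 17, encode the stress-inducible cytosolic HSP70. Hspa1a (ENSMUSG00000091971, 34969190 to 34972156) dropped from 3145 WT reads to 1566 Exon2KO reads, at -1.03 (-1.12 to -0.94), and was called lower, though with total counts it was at -0.93 and not called. Hspa1b (ENSMUSG00000090877, 34956436 to 34959238) had 5904 and 3499 reads, at -0.78 (-0.84 to -0.72), past 1.5-fold but not 2-fold. The copies are nearly alike: 60.4% of the 50-base stretches of Hspa1a transcripts and 62.3% of those of Hspa1b occur in the transcripts of another gene. The division of reads between them is uncertain, but both were lower in the Exon2KO library.

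Hsph1, the inducible HSP110 that recharges HSP70 with ATP, had 2264 reads in WT and 1153 in Exon2KO. Its log2 ratio of -0.999 (-1.10 to -0.90), or 1.999-fold lower, fell just short of a call. It shares no 50-base stretch with another gene, so its count does not depend on a copy. Among the DnaJ partners of cytosolic HSP70, Dnaja1 had 26685 and 15610 reads, at -0.80 (-0.83 to -0.77). Dnajb1, the DnaJ protein that works with HSP70 and HSP110 to dissolve aggregates, had 9097 and 6035 reads, at -0.62 (-0.67 to -0.57). Both were past 1.5-fold with TMM, and with total counts Dnajb1 was not, at -0.51.

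A pair of inducible genes stood apart from the rest. Hsp90aa1, the inducible cytosolic HSP90, had 21341 reads in WT and 21945 in Exon2KO, at 0.01 (-0.01 to 0.04). Dnajb4 had 689 and 673 reads, at -0.06 (-0.22 to 0.09). With TMM, neither gene differed beyond counting error. With total counts Hsp90aa1 was at 0.12, outside its counting interval, and Dnajb4 was at 0.045, inside its own. Of the 50-base stretches of Hsp90aa1, 47.5% occur in another gene's transcripts, and of those of Hspb1 48.8%, so part of their reads could have been assigned elsewhere or lost.

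Genes that tissue handling is known to raise were measured beside the inducible group. Over 10 immediate early genes the summed level was 16738 CPM in WT and 14635 in Exon2KO, with none at 0. Of these genes 7 had a ratio below 0, and the median was -0.16. All 10 had at least 1000 reads, and 3 were lower by 1.5-fold (30%), against 7.85% of genes of that depth. Those 3 were Dusp1 at -0.90, Atf3 at -0.84 and Nr4a1 at -0.64. Ier2 was at -0.43, Jund at -0.26, Junb at -0.07 and Egr1 at -0.01, while Fos was at 0.02, Jun at 0.29 and Fosb at 0.45. The part of cell handling in the lower heat shock genes was not tested.

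The large cytosolic chaperones that are made without stress formed the next group. Of 6 compared, 5 had a ratio below 0 and 2 were lower by 1.5-fold, none was called at 2-fold, and the median was -0.39. Their summed reads were 98035 in WT and 68627 in Exon2KO, at -0.54 (-0.56 to -0.53), led by Hspa8. Hspa8 (ENSMUSG00000015656, chromosome 9, 40800984 to 40810087, plus strand) encodes HSC70, the constitutive HSP70. It had 51990 reads in WT and 32073 in Exon2KO, or 766 and 469 FPKM, at -0.72 (-0.74 to -0.70). Without it the group's sum was at -0.36. Hspa8 has many processed copies in the genome, and 38.6% of its 50-base stretches occur in another gene's transcripts.

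Hsp90ab1, the constitutive HSP90, had 40883 and 32575 reads, or 864 and 683 FPKM, at -0.35 (-0.38 to -0.33). Hspa4, a constitutive HSP110, was at -0.42 (-0.50 to -0.34), and the ribosome-associated Hspa14 at -0.33 (-0.45 to -0.20). Hspa2, an HSP70 best known from testis, had 753 and 436 reads, at -0.81 (-0.99 to -0.64). Hspa4l, with 406 and 432 reads, was at 0.06 (-0.14 to 0.26), where no difference was detectable. Hspa1l, the neighbour of Hspa1a best known from testis, had 0 reads and 1 read.

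Ratios between genes of 1 library are free of any choice of library scaling. They come from the same counts as the ratios above, so they restate the split and are no second measure of it. In WT there were 63.4 Hspa8 reads per 100 reads of Hspa5, the ER HSP70, and in Exon2KO 40.3, a log2 change of -0.65 (-0.68 to -0.63). The inducible group as a whole went from 66.4 to 48.5 reads per 100 reads of the ER lumen group, a change of -0.45 (-0.47 to -0.43). The constitutive cytosolic group went from 93.4 to 65.7, a change of -0.51 (-0.53 to -0.49). The mitochondrial group went from 9.95 to 8.86, a change of -0.17 (-0.21 to -0.13). Within the cytosolic HSP90 pair the balance moved towards the inducible gene, from 52.2 to 67.4 Hsp90aa1 reads per 100 Hsp90ab1 reads, a change of 0.37 (0.33 to 0.40). Set against the ER HSP90 instead, Hsp90aa1 went from 162.0 to 149.0 reads per 100 Hsp90b1 reads, at -0.12 (-0.16 to -0.08). The inducible to constitutive HSP70 balance moved less, from 17.4 to 15.8 reads of Hspa1a and Hspa1b per 100 of Hspa8, at -0.14 (-0.19 to -0.09).

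The ER lumen group did not share the lower ratios. None of its 8 genes was past 1.5-fold in either direction, 5 had a ratio above 0 and 3 below, and the median was 0.02. Summed reads were 104976 in WT and 104470 in Exon2KO, at -0.03 (-0.05 to -0.02) with TMM and at 0.07 with total counts, so no direction is given. Hspa5 (ENSMUSG00000026864, chromosome 2, 34771970 to 34777547, plus strand) encodes BiP, and was the chaperone gene with the highest FPKM in both libraries. It had 82025 and 79593 reads, or 1230 and 1183 FPKM, at -0.07 (-0.08 to -0.06), or 0.04 with total counts.

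Hsp90b1, the ER HSP90 known as GRP94, had 13174 reads in WT and 14732 in Exon2KO, at 0.13 (0.10 to 0.17). Of its exonic bases 15.7% are overlapped by other genes. Its DnaJ neighbours in the lumen lay close to 0. Dnajb11, a DnaJ partner of BiP, was at 0.04 (-0.02 to 0.10), Dnajc3 at 0.03 (-0.05 to 0.11) and Dnajc1 at 0.01 (-0.10 to 0.12). Dnajb9, a DnaJ gene raised by the unfolded protein response, was at 0.15 (0.05 to 0.25). The lower end of the group was formed by Hspa13, at -0.28 (-0.49 to -0.08), and Dnajc10, a DnaJ protein with disulfide reductase activity, at -0.31 (-0.54 to -0.08).

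Plasma cells are rich in ER chaperones, and their RNA was present in both libraries. Of the 10 plasma cell markers, 8 had a ratio below 0, among them Jchain at -0.11, Mzb1 at -0.35 and Derl3 at -0.41, with a median of -0.22. Sdc1 was called higher, at 1.22, and Prdm1, which Treg cells also express, was at 0.72. The share of the ER chaperone reads that came from plasma cells was not tested.

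Among DnaJ proteins anchored in the ER membrane, Dnajb12, Dnajb14, Dnajc14 and Dnajc18 were between -0.27 and 0.10. Dnajc16 was called higher from few reads, 19 in WT and 41 in Exon2KO, at 1.01 (0.27 to 1.95).

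**Figure D2:**
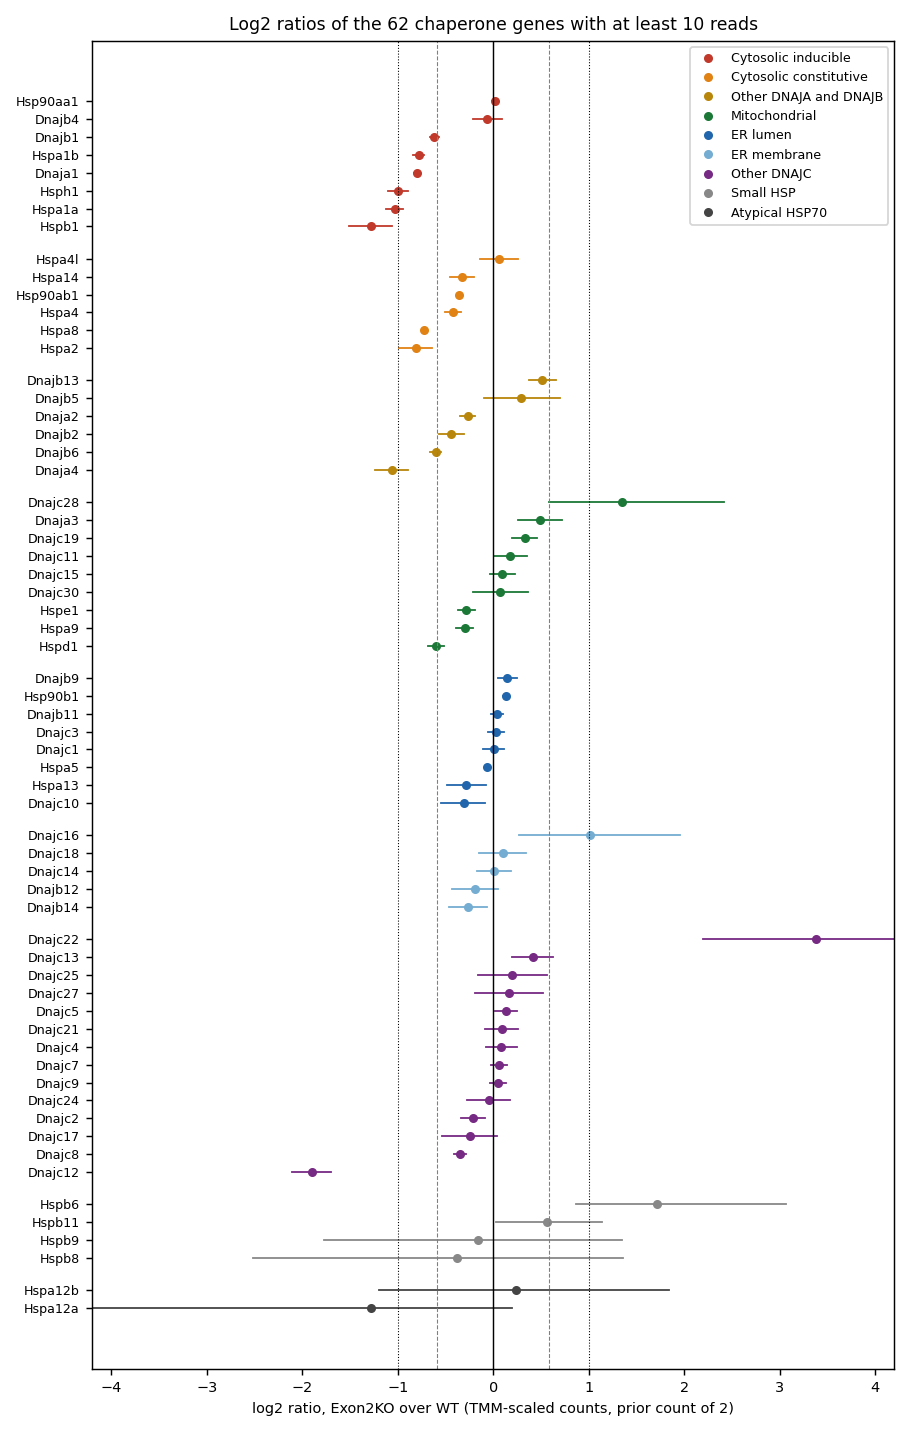
Log2 ratio of Exon2KO over WT (points) with 95% Clopper-Pearson counting intervals (lines) for the 62 genes with at least 10 reads, coloured by group; intervals that run past the axis are clipped. Dashed lines mark 1.5-fold and dotted lines 2-fold, and the inducible, constitutive and DNAJA and DNAJB groups reach to the left while the ER lumen genes sit between -0.31 and 0.15.

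The mitochondrial group was divided between its chaperones and its DnaJ proteins. Hspd1 and Hspe1 encode the two-ring chaperonin and its lid. Hspd1 (ENSMUSG00000025980, chromosome 1, 55077835 to 55088243, minus strand) had 2889 reads in WT and 1945 in Exon2KO, at -0.60 (-0.68 to -0.51). That is past 1.5-fold with TMM but not with DESeq2 size factors, at -0.583, or with total counts, at -0.49. Hspe1 had 2342 and 1961 reads, at -0.28 (-0.37 to -0.20). Although they face each other across the stretch shown above, the ratio between them changed, from 81.1 to 100.8 Hspe1 reads per 100 Hspd1 reads, at 0.31 (0.19 to 0.43). Of their 50-base stretches, 39.7% for Hspd1 and 18.4% for Hspe1 occur in other genes, and each overlaps the other's exons.

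Hspa9, the mitochondrial HSP70 known as mortalin, had 2437 and 2016 reads, at -0.30 (-0.39 to -0.21). The 6 DnaJ genes of this group had ratios above 0, though the intervals of Dnajc15 and Dnajc30 crossed 0. Dnaja3, the main DnaJ partner of mortalin, was at 0.48 (0.26 to 0.72), and Dnajc19, a component of the import motor, at 0.33 (0.20 to 0.46). Dnajc11 was at 0.18 (0.01 to 0.35), Dnajc15 at 0.10 (-0.03 to 0.22) and Dnajc30 at 0.07 (-0.22 to 0.37). Dnajc28 was called higher, with 15 and 42 reads, at 1.35 (0.58 to 2.42). The median of the 9 genes was 0.10, while their summed reads, led by the chaperones, were at -0.20 (-0.24 to -0.16), or -0.10 with total counts. Without the members whose bases were overlapped or shared the sum was at 0.0065, and without Hspd1 it was at -0.075, so no direction is given for the group.

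Other DNAJA and DNAJB genes, whose proteins act in the cytosol and nucleus, included several lower genes. Of 6 compared, 4 had a ratio below 0, 2 were lower by 1.5-fold, and the median was -0.35. Dnaja4 (ENSMUSG00000032285, chromosome 9, 54698873 to 54716315) went from 830 reads in the WT library to 405, at -1.06 (-1.24 to -0.89), and was called lower, though with total counts it was at -0.95 and not called. Wdr61 on the opposite strand overlaps 44% of its exonic bases and was at -0.10 with 1269 and 1202 reads. Dnajb6, which suppresses aggregation of polyglutamine proteins, had 6516 and 4374 reads, at -0.60 (-0.66 to -0.55), past 1.5-fold with TMM but not with total counts, at -0.496. Dnajb2 was at -0.44 (-0.57 to -0.31) and Dnaja2, a constitutive partner of HSC70, at -0.27 (-0.35 to -0.19). Dnajb13, an axonemal gene, was at 0.51 (0.37 to 0.66), with 661 and 963 reads, and Ucp2, which overlaps its end on the opposite strand, had 11777 and 14770 reads at 0.30. Dnajb5 was at 0.30 (-0.09 to 0.70).

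The DNAJC genes with specialised roles mostly lay near 0, with a median of 0.07 over 14 compared. Dnajc12 (ENSMUSG00000036764, chromosome 10, 63382443 to 63410576, plus strand) had the lowest ratio of all chaperone genes compared. Its protein is a co-chaperone of the aromatic amino acid hydroxylases. It had 924 reads in WT and 252 in Exon2KO, or 13.1 and 3.54 FPKM, at -1.89 (-2.11 to -1.70), a 3.71-fold lower level. The authors' deposited table gives it a log2 fold change of -1.90. The deposited p-values rest on the same 1 library per genotype and are not used here.

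Dnajc22 (chromosome 15, 99093170 to 99104737) was at 0 reads in the WT library and at 19 in the other, at least 6.22-fold higher when set against 3 reads, and was called higher. The small heat shock gene Hspb6, whose protein is best known from muscle, had 10 and 38 reads, at 1.71 (0.87 to 3.07), and was called higher. Markers of other cells differed beside them. Of the 12 epithelial markers 9 were called higher, and of 11 stromal, endothelial and smooth muscle markers compared 3 were called higher and 1 lower, with Myh11 at 5 and 28 reads and Des at 20 and 7. Summed levels of the latter list were 82.1 and 78.7 CPM, with Cdh5 and Cnn1 at 0 in WT. The part of these cells in Dnajc22 and Hspb6 was not tested.

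The remaining DNAJC genes included Dnajc8, a splicing-associated gene with 4275 and 3420 reads at -0.35 (-0.41 to -0.28), and Dnajc2, a ribosome-bound DnaJ gene, at -0.21 (-0.34 to -0.09). Dnajc9, a histone chaperone gene of dividing cells, was at 0.05 (-0.03 to 0.13). Dnajc7 was at 0.06 (-0.03 to 0.14) and Dnajc5, which encodes cysteine string protein, at 0.14 (0.02 to 0.25). Dnajc13, an endosomal gene, was at 0.41 (0.20 to 0.63), and Dnajc25 at 0.20 (-0.16 to 0.56). Dnajc17 was at -0.25, Dnajc24 at -0.05, Dnajc4 and Dnajc21 at 0.09 and Dnajc27 at 0.16, none past 1.5-fold. Dnajc6, which encodes the clathrin-uncoating protein auxilin, had 9 reads and 0 reads, too few to be compared.

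Small heat shock and atypical HSP70 genes other than Hspb1 and Hspb6 had few reads. Hspb11 had 48 and 73 reads, at 0.56 (0.03 to 1.13), Hspb8 7 and 5, Hspb9 9 and 8, and Hspb7 0 and 3. Dnajb3 had 1 read and 0 reads, and Dnajb7 0 reads and 1 read. Hspb2 and Hspb3, as well as Dnajb8, Dnajc5b and Dnajc5g, had 0 reads in both libraries. Hspa12a had 10 and 3 reads and Hspa12b 8 and 10. Perlecan (Hspg2) had 3 reads and 1 read. No difference was detectable at this depth for Hspb8, Hspb9, Hspa12a or Hspa12b.

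**Figure D3:**
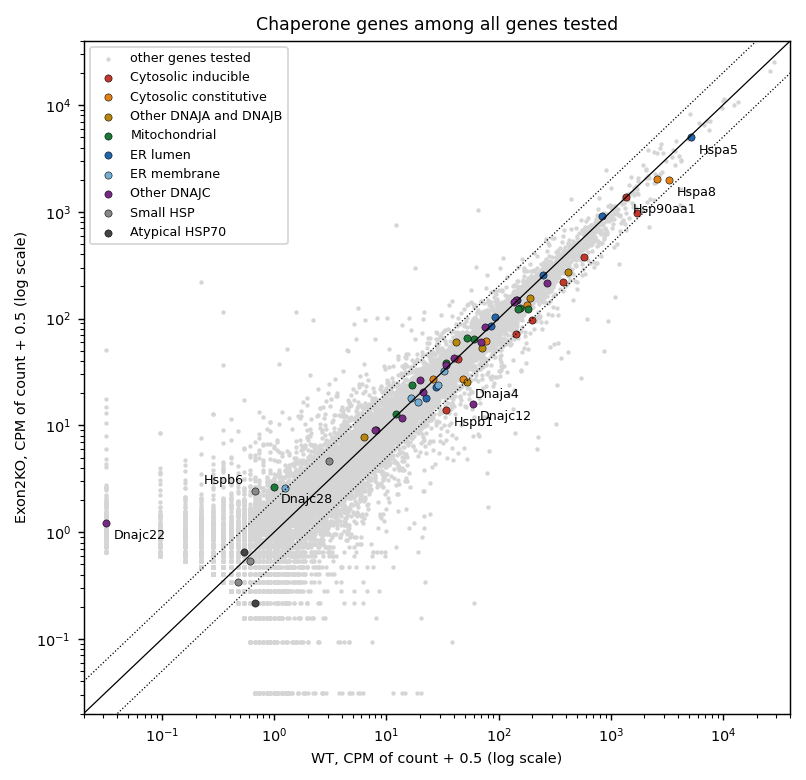
CPM of each gene's count plus 0.5 in WT (horizontal) and Exon2KO (vertical) on log axes, with all genes tested in grey and chaperone genes coloured by group; the solid line marks equal levels and the dotted lines 2-fold. Hspa5 and Hsp90aa1 sit on the line, Hspa8 below it, and the genes called higher, such as Hspb6, have few reads.

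The log2 ratios were also set out by promoter match. The 4 genes with the three-unit heat shock element were all below 0, from -0.999 for Hsph1 to -0.28 for Hspe1, with a median of -0.60. Hspd1 and Hspe1 share the same matched bases, so they are not separate cases of the element. The 3 genes with the ER stress element were between -0.07 and 0.13. Counting as well the shorter two-unit pattern, which was chosen with the values known, 14 genes compared had a match, 12 of them below 0 with a median of -0.60, and 36 had none, 14 of them below 0 with a median of 0.05. The 10 genes with the two-unit pattern alone ran from -1.28 to 1.71, with Hspb6 at 1.71 and Dnajc27 at 0.16 above 0. The 33 genes with none of the patterns ran from -1.28 to 1.35. Dnajb1, at -0.62, had none of these patterns in its window. A match is a description of the letters in the window, and 12 of the genes compared by reads did not enter the comparison by promoter. They are Dnajc12 and Dnajc22, which have the lowest and the highest ratio of all, and Hspa8, Hsp90aa1, Hsp90ab1, Hspa9, Hspa13, Dnajc2, Dnajc5, Dnajc11, Dnajc18 and Dnajc30.

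**Figure D4:**
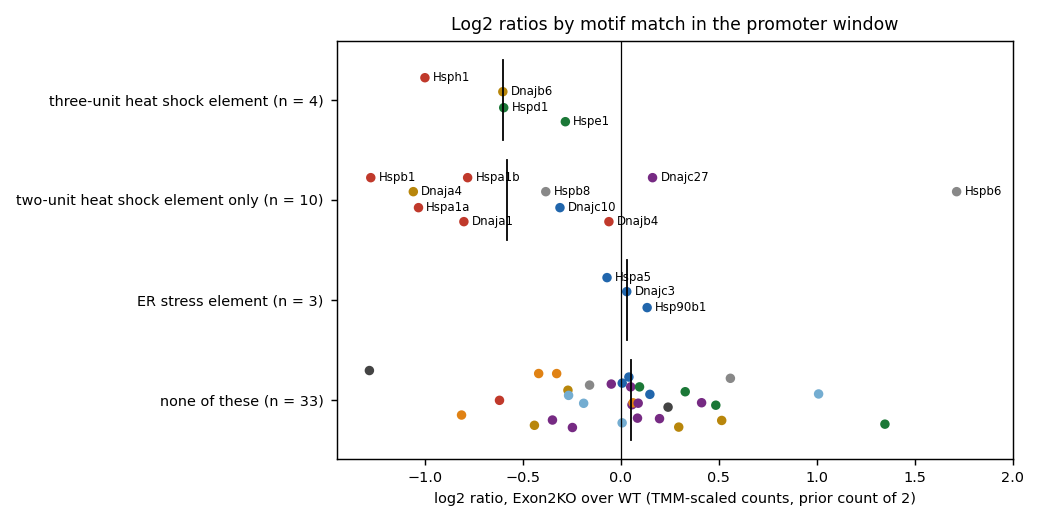
Log2 ratio of Exon2KO over WT for the 50 compared genes with a RefSeq promoter window, by the motif found in it (points coloured by group as in the plot of all ratios, black bars at the class median, vertical spread without meaning). The three-unit class lies between -0.999 and -0.28 and the ER stress element class between -0.07 and 0.13.

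Partners of the chaperones outside the name pattern were compared by list. Hsf1, the gene of heat shock factor 1, had 1500 reads in WT and 1440 in Exon2KO, at -0.09 (-0.19 to 0.02). Hsf2 was at 0.44 (0.01 to 0.90) from 74 and 103 reads, and Hsbp1, which encodes a heat shock factor binding protein, at 0.19 (0.10 to 0.28). For Hsf1 no difference was detectable beyond counting error.

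Of 21 HSP70 and HSP90 co-chaperone genes, 15 had a ratio below 0, where 49.7% of all genes tested did, and the median was -0.07. Of the 18 with at least 1000 reads 13 were below 0, where 56.2% of genes of that depth were. At 1.5-fold 1 was lower (4.76%), where 10.6% of all genes were, and none was called at 2-fold. The 4 with the largest differences were all lower. Stip1, which bridges HSP70 and HSP90, had 2653 and 1759 reads, at -0.62 (-0.71 to -0.53), and at -0.51 with total counts, short of 1.5-fold. Ahsa1, which activates the HSP90 ATPase, was at -0.51 (-0.60 to -0.42), Fkbp4 at -0.50 (-0.60 to -0.39) and Bag1 at -0.44 (-0.53 to -0.36). Bag3, a well-known heat shock factor 1 target named here after its value was seen, was 1 of 6 with a ratio above 0. It was at 0.06 (-0.10 to 0.21) with 652 and 691 reads.

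Among 10 other heat shock factor 1 targets the median was -0.18, with 1 lower by 1.5-fold (10%), near the 10.6% of all genes tested. Sqstm1, the autophagy receptor p62, had 29758 and 16618 reads, at -0.87 (-0.89 to -0.84). The largest ratio in that list, 1.44 for Cryab, came from 2 and 9 reads and is named after its value was seen. Ier5 was at -0.42, Dedd2 at -0.33 and Hmox1 at -0.23 (-0.49 to 0.02). Cytosolic chaperonin and prefoldin genes, 14 in all, had a median of -0.03 with none past 1.5-fold. Within them the chaperonin subunits Cct3 and Cct6a were at -0.32 and -0.30, and the prefoldin subunits Pfdn1 and Pfdn4 both at 0.46.

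The 24 ER folding and unfolded protein response genes lay near 0 like the ER chaperones, with a median of 0.07, 16 above 0 and 8 below. Hyou1, the ER HSP110, was higher by 1.5-fold, at 0.59 (0.38 to 0.81) from 295 and 454 reads. Atf6, a sensor of the response, was at 0.56 (0.42 to 0.71), Manf at 0.38 (0.33 to 0.43) and Ero1lb at -0.39 (-0.58 to -0.21). Mitochondrial folding and protease genes, 11 in all, had a median of -0.07 with none past 1.5-fold. In that list Clpb was at 0.53 (0.30 to 0.77), Clpx at -0.30 (-0.49 to -0.12), Trap1, the mitochondrial HSP90, at -0.16 (-0.31 to -0.01) and Tomm70a at -0.14. Proliferation genes, given for comparison, were all below 0 in 10 of 10, with a median of -0.27 and none past 1.5-fold.

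**Figure D5:**
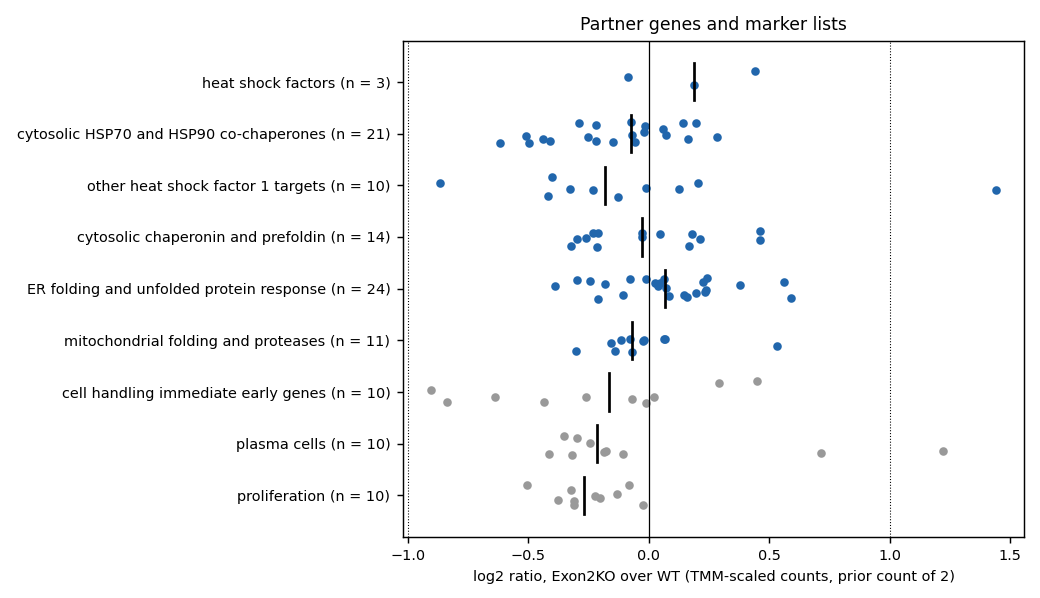
Log2 ratio of Exon2KO over WT for each gene with at least 10 reads in the 6 partner lists (blue) and in 3 marker lists (grey), with black bars at the list medians, dotted lines at 2-fold and vertical spread without meaning. The ER folding list is centred at 0.07 and the other heat shock factor 1 targets at -0.18.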

How the data were processed

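The authors deposited 1 table with raw read counts per gene for the WT and Exon2KO libraries. It also holds the authors' FPKM values, a scaled count signal deposited by the authors, and deposited log2 fold changes with a raw and an adjusted p-value, whose tool is not given in the sources used here. The submitters' processing notes name mm10, HISAT2 2.0.5, StringTie 1.3.3b, featureCounts 1.5.0-p3 and DESeq2 1.16.1, without roles. The use of strand is not given in the sources used here, so reads of overlapping genes are uncertain.

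From the counts, TMM factors (0.964 for WT, 1.04 for Exon2KO) were computed with edgeR 4.0.16 in R 4.3.3. Genes whose 2 counts summed to 10 or more had a 2-sided exact binomial test, Benjamini-Hochberg adjusted, which compares the 2 libraries and not the genotypes. Intervals of log2 ratios between the libraries are 95% Clopper-Pearson, without the prior count. For ratios between genes of 1 library, the intervals of the log2 change are 95% normal approximations. All these intervals cover counting error only. They may be too narrow even for that, since reads counted without unique tags may repeat a molecule. The test was checked on simulated data. Python 3.11.15, scipy 1.17.1 and GENCODE M21 (GRCm38) were used, with exon overlaps and shared 50-base stretches taken from M21.

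Named were all called members, the members of the 4 main groups with at least 100 reads in 1 library, the 4 highest and 4 lowest others, and up to 4 genes per partner list. Outside this rule, the other members, Bag3 and Cryab are given, with their values seen. The members, lists and tests were chosen with earlier results of these data known. Protein sequences were not used here, so a planned search for protein motifs was not run.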

Additional observations from a re-analysis of the deposited data

How the results depend on the processing

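The 4 genes called higher (Dnajc16, Dnajc22, Dnajc28 and Hspb6) and the 4 called lower (Dnajc12, Dnaja4, Hspa1a and Hspb1) were recounted under other settings. A minimum of 50 reads left 2 higher. Total counts left 2 lower (Dnajc12 and Hspb1), and a 1.5-fold threshold gave 12 lower. TMM without immunoglobulin, mitochondrial and haemoglobin genes gave 5 lower, with Hsph1 added, and no read minimum gave 5, with Dnajc6 added. When edgeR's exact test was given an assumed biological coefficient of variation of 0.2, 1 gene was higher and 2 were lower. With 0.4 both counts were 0. The 12 genes lower by 1.5-fold became 2 and 0 with these assumed spreads, and between 9 and 13 under the other settings. Total counts gave 9, without Dnajb1, Dnajb6 and Hspd1, and DESeq2 size factors gave 11, without Hspd1. Among the list genes outside the set, total counts took Stip1, Nr4a1, Muc2 and Des out of the 1.5-fold calls and added Atf6 at 0.67, Clpb at 0.64 and Cd68 at 0.61, while the other scalings changed none.

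For the 4 main groups, the summed log2 ratio moved beyond its counting interval in these cases. Among the other groups, total counts moved the DNAJA and DNAJB sum to -0.33 and the DNAJC sum to -0.031, and turned the ER membrane sum from -0.068 to 0.038. With total counts it was -0.38 for the inducible, -0.44 for the constitutive, 0.072 for the ER lumen and -0.10 for the mitochondrial group. With DESeq2 size factors it was -0.53 for the constitutive and -0.0196 for the ER lumen group. The group medians were -0.79, -0.39, 0.019 and 0.096, in the same order. The following settings, and the recounts of the 12 genes and of the list genes, were added after the data were seen. Without the gene with the most reads the sums were -0.78, -0.36, 0.0895 and -0.0752. Without the 19 members that had over 10% of bases overlapped or stretches shared they were -0.64, -0.36, -0.0595 and 0.00648. The mitochondrial and ER lumen sums thus changed sign with the choice, and the cytosolic sums did not. Among 57 members recomputed singly, total counts changed the sign of 3 (Hspa5, Dnajb4 and Dnajc24), all within 0.1 of 0. No paired analysis was possible because there is only 1 library of each genotype, and none could be left out. The spread between samples, which sets how many of these differences would hold, is not measured here.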
